A study of Mus musculus with 2 samples.

Results

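The carboxylesterases (Ces), UDP-glucuronosyltransferases (Ugt) and cytosolic sulfotransferases (Sult) were compared between small intestine of Spib knockout and of wild-type mice. Members were the genes of the deposited table whose symbol begins with Ces and a digit, with Ugt1, Ugt2 or Ugt3, or with Sult and a digit. The pattern found 45 of 27275 genes, of which 17 are Ces, 17 Ugt and 11 Sult genes. The 17 Ugt genes that matched are all Ugt1a, Ugt2a or Ugt2b genes, and no symbol beginning with Ugt3 was found.

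The wild-type library, WT below, carries the genotype label Spib+Villin-Cre and the knockout library, KO below, carries Spibfl/flVillin-Cre, so both labels name the Cre transgene. Villin-Cre is active in the intestinal epithelium and not in immune cells, and Spib encodes an ETS family transcription factor of M cells and B cells. The animals were naive. Each genotype has 1 library, and the sources used here do not give age, sex, number of animals or pooling. Every difference below is therefore one between these libraries, without a replicate and without a test of genotype. In bulk tissue, fewer cells of a type and less RNA per cell cannot be told apart.

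Carboxylesterases are serine hydrolases, mostly of the endoplasmic reticulum lumen, that split ester and amide bonds of drugs, pesticides and lipids. The Ces2 genes are the prominent carboxylesterase group of the small intestine. UDP-glucuronosyltransferases of the same membrane attach glucuronic acid to bilirubin, steroids, bile acids and phenols, and cytosolic sulfotransferases attach sulfate from the donor PAPS to phenols, amines, steroids and thyroid hormone. Together they make small molecules more soluble before these leave the enterocyte.

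Values are FPKM, reads scaled to gene length and to library size. Levels of different genes can be ranked on this scale because it is per length, apart from genes that share exons. The log2 ratio stands for log2((KO FPKM + 1) / (WT FPKM + 1)), which understates differences of genes with low values. Folds are plain ratios of FPKM. The interval after a fold is an exact 95% interval that covers counting error only, as if every read were an independent molecule, and it leaves out variation between mice. Genes with at least 1 FPKM in at least 1 library were compared, 13479 in all.

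The implied depth was 17425640 reads in WT and 17658566 in KO. Spib itself had 4.94 FPKM in WT and 0.592 in KO, in the direction of the labels. The design text calls the tissue proximal small intestine, yet markers of the ileum stood beside those of the upper gut in both libraries. The ileal bile acid binding protein gene Fabp6 had 2030.2 and 1734.6 FPKM and the ileal bile acid carrier gene Slc10a2 had 92.6 and 92.1, while lactase (Lct) had 189.5 and 199.3. The region lists differed between the libraries. Of 8 compared duodenum and jejunum markers, 6 were above 0 (median 0.10, summed level 756 and 1041 FPKM), led by Fabp1 at 486 and 764 FPKM, and the iron exporter gene Slc40a1 was 2-fold lower at 8.75 and 3.41. Of 9 ileum markers, 7 were below 0 (median -0.23, summed level 3382 and 3048 FPKM). Of 6 compared colon markers, 5 were above 0 (median 0.45, summed level 554 and 680 FPKM), and Car1 was past 2-fold at 0.874 and 15.9 FPKM. Of all 13479 compared genes, 5569 were above 0 and 7910 below. The part of the region differences in the members' values was not tested. Of the 23 enterocyte markers compared, 14 were above 0 and 9 below, with a median log2 ratio of 0.11 and none past 2-fold. Their summed level was 23099 FPKM in WT and 22145 in KO, and the most abundant, Fabp2, had 5325 and 4103.

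Of the 45 members, 23 were compared and 22 stayed below 1 FPKM in both libraries. At least 2-fold higher in KO were 2 of the 23, both carboxylesterases, against 1.61% of all compared genes. At least 2-fold lower was none of the 23, against 2.51% of all compared genes. A log2 ratio above 0 was found for 19 of the 23, against 41.3% of all compared genes. The median log2 ratio of the 23 was 0.19, and that of all compared genes was -0.05. At the looser threshold of 1.5-fold, added after the data were seen, 5 of the 23 were higher, against 3.56% of all compared genes, and none was lower, against 5.69%. Among 990 genes with a mean of at least 50 FPKM, the median was -0.04.

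**Figure D1:**
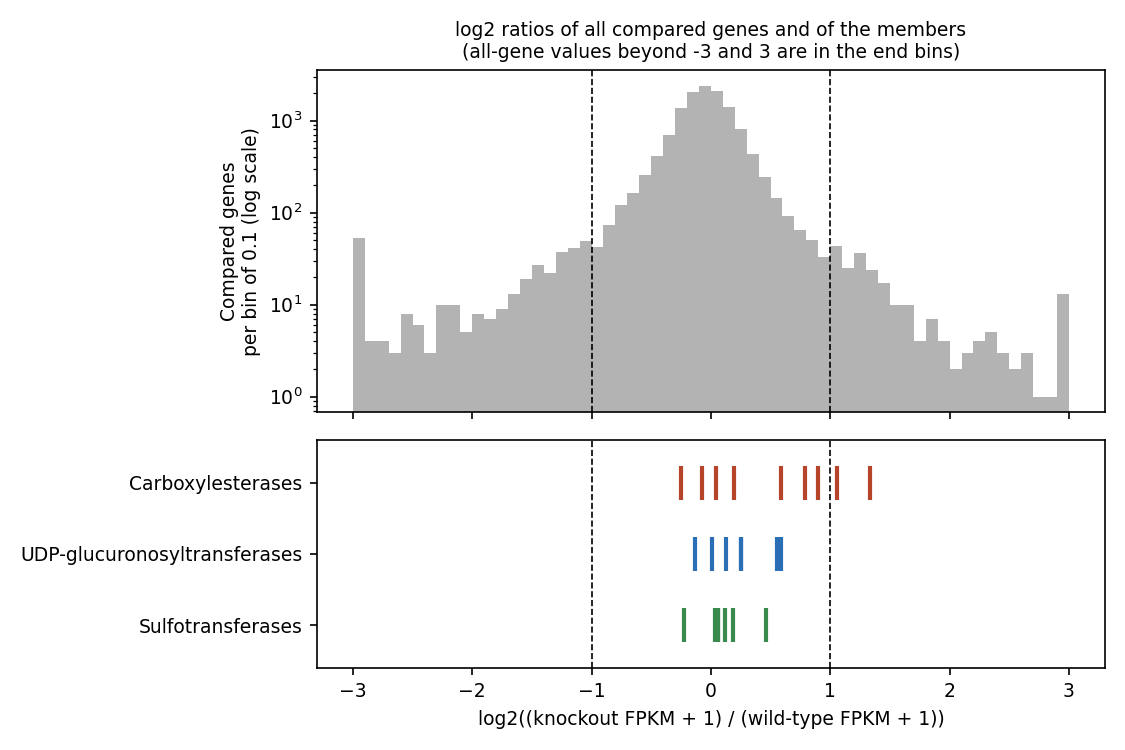
The upper panel counts all 13479 compared genes by log2 ratio in bins of 0.1 on a log axis, with genes beyond 3 in either direction in the end bins, and the lower panel marks each of the 23 compared members by family. Ces1c at 1.33 and Ces2a at 1.06 lie past the dashed 2-fold line, and the lowest member, Ces1f, lies at -0.25.

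Sequences before the gene starts are given for the most abundant carboxylesterases, Ces2a, Ces2c and Ces2e, which lie in 1 cluster on the plus strand of chromosome 8 and differed in how far apart the libraries were. Of the 45 members, 38 have an entry in the RefSeq promoter table (GRCm38.p6). Each line holds the 250 bases before the start of the gene, 5′ to 3′, from chr8:104733753-104734002 for Ces2a, chr8:104846818-104847067 for Ces2c and chr8:104926010-104926259 for Ces2e. Capitals mark the runs of at least 7 bases that all 3 windows hold, of which there are 3.
Ces2a: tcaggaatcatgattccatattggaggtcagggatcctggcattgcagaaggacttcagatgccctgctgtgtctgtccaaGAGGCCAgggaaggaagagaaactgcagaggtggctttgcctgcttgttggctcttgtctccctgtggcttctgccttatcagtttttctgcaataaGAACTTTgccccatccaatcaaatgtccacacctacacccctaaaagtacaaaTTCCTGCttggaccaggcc
Ces2c: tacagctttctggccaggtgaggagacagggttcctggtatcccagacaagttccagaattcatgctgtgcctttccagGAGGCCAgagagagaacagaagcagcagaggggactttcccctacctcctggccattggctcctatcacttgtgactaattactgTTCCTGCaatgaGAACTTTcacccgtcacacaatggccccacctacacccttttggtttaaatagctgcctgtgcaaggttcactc
Ces2e: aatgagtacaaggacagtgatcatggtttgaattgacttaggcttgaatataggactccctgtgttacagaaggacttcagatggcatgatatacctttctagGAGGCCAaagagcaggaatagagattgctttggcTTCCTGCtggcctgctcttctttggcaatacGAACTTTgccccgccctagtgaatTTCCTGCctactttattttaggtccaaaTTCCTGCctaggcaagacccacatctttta
The run GAACTTT begins 72 bases before the start of Ces2a, 74 before that of Ces2c and 82 before that of Ces2e. It is found on either strand in the same window of 3.28% of 32851 RefSeq promoters. GAGGCCA begins 169, 171 and 147 bases before the start, and 6.56% of promoters hold it. TTCCTGC is found at 1 place in Ces2a, 1 in Ces2c and 4 in Ces2e, and in 7.28% of promoters. In Ces2e 3 of the 4 are in capitals, and the other, 136 bases before the start, is on the minus strand and not in capitals. These runs were searched after the sequences were seen.

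In a global alignment, the windows of Ces2a and Ces2c had 164 of 243 aligned bases in common (67.5%). Ces2a and Ces2e had 151 of 216 (69.9%), and Ces2c and Ces2e had 146 of 217 (67.3%). Bases that face a gap are left out of these percentages. The window of Ces1c, a gene of a separate cluster, was aligned in the same way for comparison. It had 128 of 224 aligned bases in common with Ces2a (57.1%), 87 of 161 with Ces2e (54.0%) and 120 of 240 with Ces2c (50%). With 1 such window, the range for unrelated promoters was not tested. Letters of known sites were searched on both strands. The nuclear receptor half-site AGGTCA lies 226 bases before the start of Ces2a and in 14.0% of all promoters, and it is not in the windows of Ces2c or Ces2e. The exact letters GAGGAAGT, a Spi-B type ETS site, are in none of these windows, and 2.44% of promoters hold them. Shorter or variant forms of an ETS site were not searched. The HNF4 site CAAAGTCCA (0.384% of promoters), the HNF1 site (0.00913%), the CDX site CAATAAA (4.20%), the half-site AGTTCA (11.8%) and the aryl hydrocarbon receptor site TNGCGTG (4.10%) are in none of them either. The AGGTCA of Ces2a overlaps none of the shared runs. No match says only that these letters are not in this window.

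The summed level of the Ces2 genes was higher in KO. Their 8 members lie on chromosome 8 between 104734003 and 105021178 (mm10), and the summed level was 535 FPKM in WT and 763 in KO, 1.43-fold higher. All 5 compared members had log2 ratios above 0, from 0.19 to 1.06, with a median of 0.79. Of these, 1 passed 2-fold and 4 lay within it. Without Ces2a the sum of the other 7 was 441 and 567 FPKM, 1.28-fold higher.

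Ces2a, an enzyme that hydrolyses pyrethroid esters, had 93.8 FPKM from 3855 reads in WT and 196 FPKM from 8169 reads in KO. That is 2.09-fold higher (2.01 to 2.17), with a log2 ratio of 1.06. Of all compared genes, 1.42% had a higher ratio, and it ranked 22 among the 990 genes with a mean of at least 50 FPKM. Its exons (chromosome 8, 104734003 to 104741634) share 17.3% of their 50-base words with other genes, most with the pseudogene Gm7208, which had 0.0297 FPKM in WT and 0 in KO.

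Ces2c, a carboxylesterase that also acts on glycerides, had 99.7 FPKM (3993 reads) in WT and 173 FPKM (7026 reads) in KO, 1.74-fold higher (1.67 to 1.81). Its log2 ratio of 0.79 is short of 2-fold. It shares 36.1% of its 50-base words with other genes, chiefly the neighbouring pseudogene Ces2d-ps, which had 0.381 and 0.479 FPKM, so how its reads were divided between copies is uncertain. Ces2e was the most abundant member of all 3 families, at 337 FPKM and 386 FPKM, and only 1.14-fold higher (1.12 to 1.17). It shares 3.30% of its words with other genes. The order of the levels therefore changed below Ces2e. Ces2c (counting interval 96.6 to 102.9 FPKM) and Ces2a (90.8 to 96.8) overlapped within counting error in WT, and Ces2a (192 to 200.4) stood above Ces2c (169 to 177) in KO.

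Of the less abundant Ces2 genes, Ces2b had 1.13 FPKM (67 reads) in WT and 2.96 FPKM (178 reads) in KO, 2.62-fold higher (1.97 to 3.53). On the log2(FPKM + 1) scale this is 0.90, within 2-fold, and with a pseudocount of 0.1 it was 1.32, past it. Ces2g had 2.49 FPKM (155 reads) and 4.23 FPKM (267 reads), 1.70-fold higher (1.39 to 2.09). Ces2f, Ces2h and Ces2d-ps stayed below 1 FPKM in both libraries, with at most 16 reads. Ces2h had 10 reads in WT and 2 in KO, and Ces2f had 16 and 9, against the direction of the abundant members. The interval of the Ces2f ratio (0.22 to 1.33) spans 1. Ces2d-ps had 11 reads and 14.

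The share of Ces2e in the summed carboxylesterase level was 60.5% in WT and 49.0% in KO. The share of Ces2a was 16.8% and 24.9%, and that of Ces2c 17.9% and 22.0%. Over all 17 carboxylesterases the sum was 557 FPKM and 787 FPKM, 1.41-fold higher. Of the 9 compared, 2 were at least 2-fold higher, none was 2-fold lower and 7 lay between, with a median log2 ratio of 0.58.

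**Figure D2:**
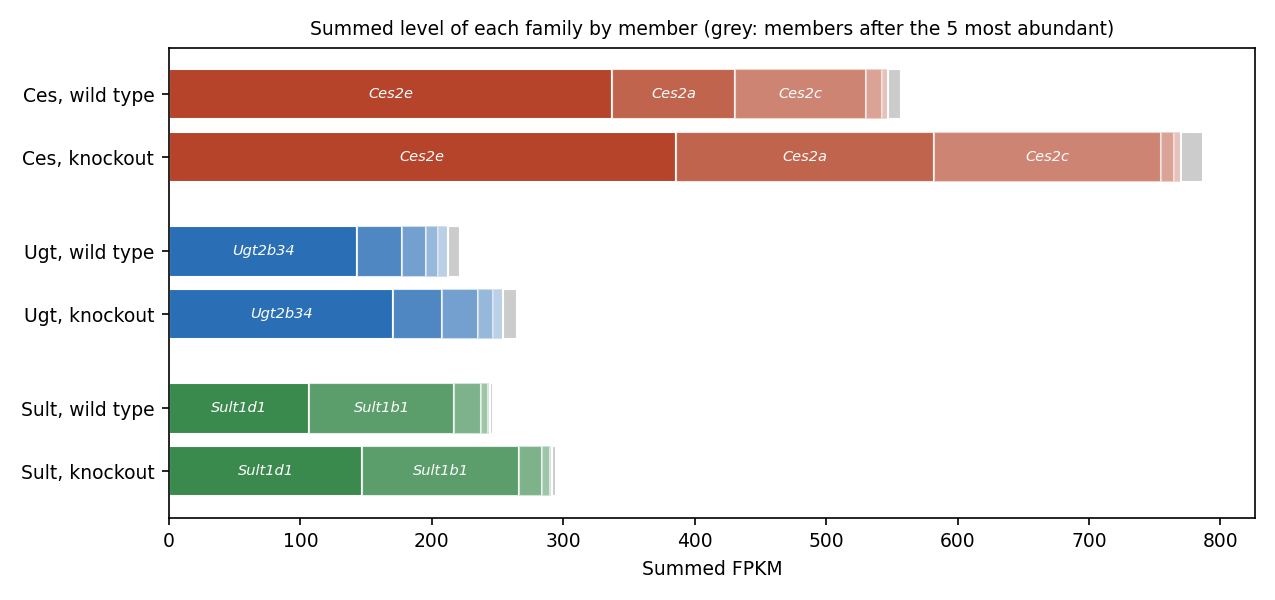
Bars give the summed FPKM of each family in each library from 0, split by member in order of mean level, with members after the 5 most abundant in grey. The carboxylesterase sum is 557 FPKM in WT and 787 in KO, and the Ces2a segment widens most.

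The Ces1 genes, a separate cluster on the minus strand of chromosome 8 (93056728 to 93379725), did not share 1 direction. Ces1c, the carboxylesterase secreted into mouse plasma, had 1.51 FPKM (61 reads) in WT and 5.31 FPKM (218 reads) in KO. That is 3.53-fold higher (2.64 to 4.76), with a log2 ratio of 1.33, and 0.76% of compared genes had a higher one. With a pseudocount of 5 the log2 ratio was 0.66, no longer past 2-fold. It shares 13.0% of its 50-base words with other genes, most with its neighbour Ces1b, which had 7 reads and 1 read.

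The other compared Ces1 genes lay close to 0 or below. Ces1f, known from liver, was the most abundant of them at 12.0 FPKM (686 reads) in WT and 9.91 FPKM (575 reads) in KO, 1.21-fold lower (1.08 to 1.35). Ces1d, a triacylglycerol hydrolase of liver and fat, had 4.80 and 4.97 FPKM. Ces1e had 3.25 and 3.03 FPKM. It is known as egasyn, which holds part of the beta-glucuronidase of a cell in the endoplasmic reticulum, and the beta-glucuronidase gene Gusb had 6.38 and 5.30 FPKM. The intervals of Ces1d (0.85 to 1.27 as a ratio of knockout to wild type) and Ces1e (0.72 to 1.21) span 1. The sum of the 7 Ces1 genes was 22.2 and 23.6 FPKM. Of 14 hepatocyte markers, 5 reached 1 FPKM, with a summed level of 184 FPKM in WT and 208 in KO. Most of it came from Cps1, which enterocytes also express, at 171 and 194 FPKM. Of the others, Serpina1b had 8.67 and 7.93 FPKM, Ttr 1.51 and 1.02, Cyp2e1 1.30 and 2.89, and Apoh 0.576 (16 reads) and 1.78 (50 reads). Cyp2e1 and Apoh were thus higher in KO, as Ces1c was, and the other 9 markers stayed below 1 FPKM. Among these, albumin (Alb) had 0.123 FPKM in WT and 0 in KO, and Serpina3k, Fgg and Ahsg were listed at 0 in both. The part of liver RNA in the Ces1c value was not tested.

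Ces3a and Ces3b, the pair next to the Ces2 cluster, were rare. Ces3a had 4 reads in WT and 14 in KO, a ratio of 3.45 (1.08 to 14.4). Ces3b had 1 read and 11 reads, a ratio of 10.9 (1.58 to 467). Each shares about as many words with its partner (25.6% and 26.2%), so reads of the pair can be mixed. Neither exceeded 0.302 FPKM. Ces1h was listed at 0 in both libraries, and Ces1b and Ces1g had at most 18 reads.

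**Figure D3:**
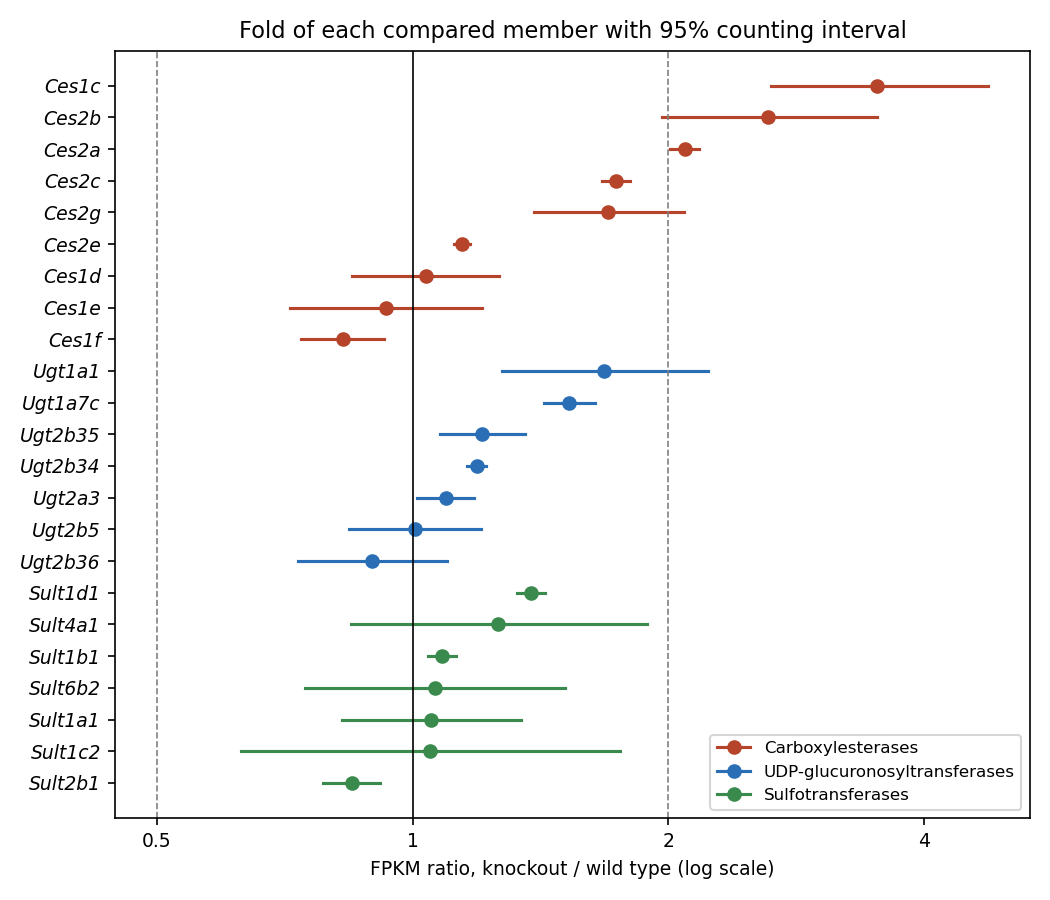
Points are the FPKM ratios of knockout to wild type for the 23 compared members on a log axis, coloured by family, and bars are exact 95% intervals of counting error. Ces1c (3.53), Ces2b (2.62) and Ces2a (2.09) have ratios above 2, and no ratio is below 0.5.

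Glucuronosyltransferases differed little and mostly in the same direction. None of the 7 compared Ugt genes was 2-fold higher or lower, 6 had log2 ratios above 0, and the median was 0.25. The sum of the 17 members was 222 FPKM in WT and 265 in KO, 1.19-fold higher. Ugt2b34 made up 64.7% of that sum in WT and 64.4% in KO. It had 143 FPKM (10782 reads) and 171 FPKM (12997 reads), 1.19-fold higher (1.16 to 1.22).

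Ugt1a genes showed the largest differences among the glucuronosyltransferases. Ugt1a7c, an enzyme of the phenol-conjugating group, had 17.9 FPKM (1317 reads) in WT and 27.4 FPKM (2042 reads) in KO, 1.53-fold higher (1.43 to 1.64) with a log2 ratio of 0.59. Ugt1a1, which conjugates bilirubin, had 2.17 FPKM (84 reads) and 3.64 FPKM (143 reads), 1.68-fold higher (1.27 to 2.23) with a log2 ratio of 0.55. The other 6 stayed below 1 FPKM, led by Ugt1a6a at 0.705 FPKM (53 reads) and 0.880 FPKM (67 reads). The sum of the 8 Ugt1a genes was 21.1 and 32.5 FPKM, 1.54-fold higher.

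Single Ugt1a values are uncertain because these genes are built from 1 locus (chromosome 1, 88070800 to 88220002), in which each has its own first exon and all use the same last exons. In GENCODE M21, between 50.3% and 60.6% of the exon bases of the 8 genes also belong to another gene on the same strand. For Ugt1a1, 913 of 2224 exon bases are its own. Ugt1a7c has 1915 of its own, but 998 of these (88219005 to 88220002) extend the end of the common last exon, which only this gene model reaches. A read from that stretch cannot be assigned to a first exon. The sources used here do not say how the authors' counting treated the shared bases. Ugt1a2, Ugt1a5 and Ugt1a8 had 0 reads in WT and 3, 1 and 1 in KO. Of their exon bases, 59.3%, 59.5% and 59.2% are shared. Reads from the shared bases were thus not credited to these genes. If such reads were credited to no gene, Ugt1a levels are too low for their length, and so are the Ugt1a and Ugt sums.

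The Ugt2 genes lie on chromosome 5 (86889767 to 87490871). Ugt2a3, which acts on bile acids, had 34.1 FPKM (1258 reads) and 37.3 FPKM (1394 reads), 1.09-fold higher (1.01 to 1.18). Ugt2b35 had 9.21 and 11.1 FPKM, 1.21-fold higher (1.08 to 1.36). Ugt2b36 had 5.80 and 5.20 FPKM, and Ugt2b5 had 7.72 and 7.77, with intervals that span 1. Ugt2b5 shares 41.7% of its 50-base words with other genes, most with Ugt2b38, which had 9 reads and 6. Ugt2a1 and Ugt2b1 had at most 2 reads in either library, and Ugt2b37 had 2 reads and 0.

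**Figure D4:**
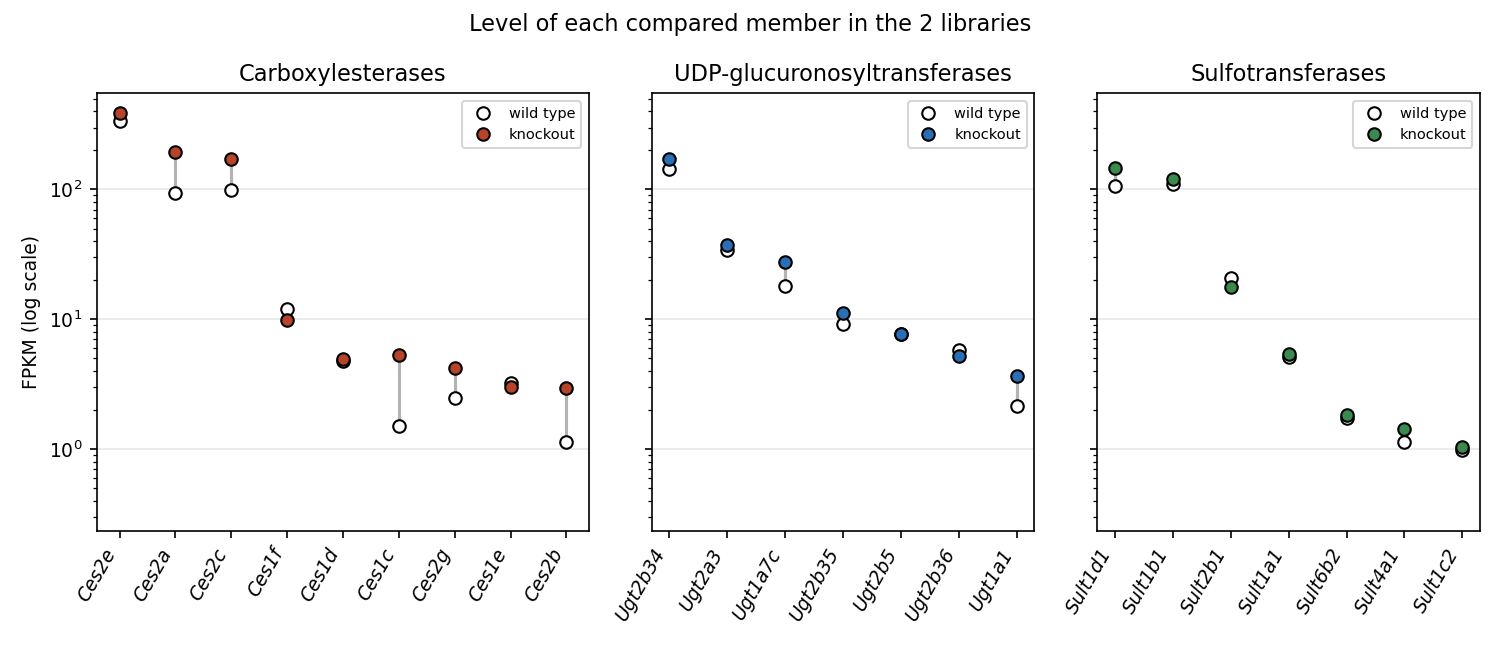
Each pair of points is the FPKM of 1 compared member on a log axis, open for WT and filled for KO, in order of mean level within each family. Ces2e, Ugt2b34, Sult1d1 and Sult1b1 stand above 100 FPKM in both libraries, and the longest gap is that of Ces1c.

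Sulfotransferases were the least different of the 3 families by their median, 0.06 over 7 compared genes. None passed 2-fold in either direction, and 6 of the 7 lay above 0. The sum of the 11 members was 247 FPKM in WT and 294 in KO, 1.19-fold higher, and most of the added level was in 1 gene.

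That gene was Sult1d1, which sulfates catecholamines (chromosome 5, 87554645 to 87569027). It had 107 FPKM (4569 reads) in WT and 147 FPKM (6386 reads) in KO, 1.38-fold higher (1.33 to 1.43) with a log2 ratio of 0.46. Its neighbour Sult1b1, which sulfates thyroid hormone and phenols, had 110 FPKM (5343 reads) and 119 FPKM (5866 reads), 1.08-fold higher (1.04 to 1.12). Sult1b1 and Sult1d1 overlapped within counting error in WT (107 to 113 and 104 to 109.8 FPKM). In KO Sult1d1 was the higher (143 to 151 against 116 to 123 FPKM). Neither shares a 50-base word with another gene.

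Sult2b1, which sulfates cholesterol and related sterols, was the only compared sulfotransferase below 0. It had 20.8 FPKM (1430 reads) and 17.6 FPKM (1229 reads), 1.18-fold lower (1.09 to 1.27). Sult1a1, the phenol sulfotransferase, had 5.14 and 5.41 FPKM. It shares 7.36% of its words with other genes, most with the pseudogene Gm6939, which had 0.996 and 0.131 FPKM. Sult1c2, Sult4a1 and Sult6b2 had between 0.995 and 1.84 FPKM in both libraries, with intervals that span 1. The oestrogen sulfotransferase gene Sult1e1, beside Sult1d1, had 0 reads and 2, and Sult2a8 was listed at 0 in both.

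Neighbours on the chromosome mostly had ratios of the same direction but of different size, apart from the Ces1 cluster. The Ugt2 and Sult1 genes of chromosome 5 occupy adjacent ground (86889767 to 87591594), and 6 of their 7 compared members had log2 ratios above 0, from -0.13 for Ugt2b36 to 0.46 for Sult1d1. In the Ces2 cluster all 5 compared members were above 0, and the range was 0.19 to 1.06. In the Ugt1a locus 2 of 2 were above 0, at 0.55 and 0.59. In the Ces1 cluster 2 of 4 were above 0, and the range was -0.25 to 1.33. Of all compared genes, 41.3% were above 0, and of the 23 compared members 82.6%. Whether neighbours share a direction more often than the members as a whole was not tested.

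Genes that supply, follow or control these enzymes had list medians between -0.18 and 0.09, apart from other targets of xenobiotic receptors. Of 12 compared genes for UDP-glucuronate supply and glucuronide cleavage, none passed 2-fold and the median was 0.09. The phosphoglucomutase gene Pgm1 led them at 55.8 and 73.5 FPKM. Ugdh, which makes UDP-glucuronate, had 25.3 and 34.9 FPKM. Ugdh, Papss1, Papss2, Nr1i2, Ahr, Abcb1a, Abcc2, Abcg2 and the liver and ileum markers named above were picked for mention after their values were seen. So were Cyp1b1, Tiparp and Ahrr.

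None of 13 compared genes for sulfate uptake and PAPS supply passed 2-fold, and the median was 0.04. The most abundant was the phosphatase gene Bpnt1 at 115 and 118 FPKM. The PAPS synthases Papss1 and Papss2 had 54.9 and 36.0 FPKM in WT and 51.4 and 42.7 in KO. Of 18 compared sulfatases and other sulfotransferases, 1 was 2-fold lower and none higher, with a median of -0.09. The lower gene was Chst4, which sulfates glycans of lymphocyte ligands and mucins, at 18.2 FPKM against 8.11.

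Exporters of drugs and conjugates had a median of -0.18 over 10 genes, none past 2-fold. Slc51a, the basolateral bile acid exporter subunit, had 311 and 271 FPKM, while the apical pumps Abcb1a and Abcc2 had 91.1 and 42.6 FPKM in WT and 133 and 59.0 in KO. The apical pump Abcg2 was lower in KO, at 28.1 and 22.9 FPKM. Below 0 were 7 of the 10, beside 7910 of all 13479 compared genes. Uptake carriers had a median of -0.06 over 8 genes, none past 2-fold. Other serine ester and amide hydrolases had a median of 0.01 over 19 genes, none past 2-fold, with Cmbl highest at 58.5 and 78.1 FPKM. Endoplasmic reticulum folding and retention genes had a median of -0.09 over 12, none past 2-fold.

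Of 27 compared nuclear receptors and transcription factors of drug metabolism genes, none passed 2-fold, and the median was 0.02. The enterocyte factor Hnf4a had 203 and 198 FPKM. The drug-sensing receptor PXR (Nr1i2) had 48.8 and 45.0 FPKM, and the aryl hydrocarbon receptor Ahr had 3.68 and 3.80.

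Other targets of these receptors leaned upward, with a median of 0.25 over 22 genes. At least 2-fold higher were 4 of the 22, none was 2-fold lower and 18 lay between, against 1.61% higher and 2.51% lower of all compared genes. A log2 ratio above 0 was found for 17 of the 22, against 41.3%. Gstm3, a glutathione transferase, had 16.1 FPKM (368 reads) in WT and 60.4 FPKM (1398 reads) in KO. Cyp2c66, a cytochrome of fatty acid and drug oxidation, had 2.92 and 11.2 FPKM. The aryl hydrocarbon receptor target Cyp1a1 had 1.63 and 6.34 FPKM, and Cyp2c29 had 0.0937 and 2.09. Cyp1b1, Tiparp and Ahrr of the same list did not follow Cyp1a1. Cyp1b1 had 2.798 FPKM in WT and 2.639 in KO, and Tiparp had 10.97 and 12.01. Ahrr stayed below 1 FPKM, at 0.675 and 0.7198. The most abundant gene of the list, Cyp3a13, had 244 and 259 FPKM. The Gstm and Cyp2c families have close copies, so values of single genes are uncertain.

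**Figure D5:**
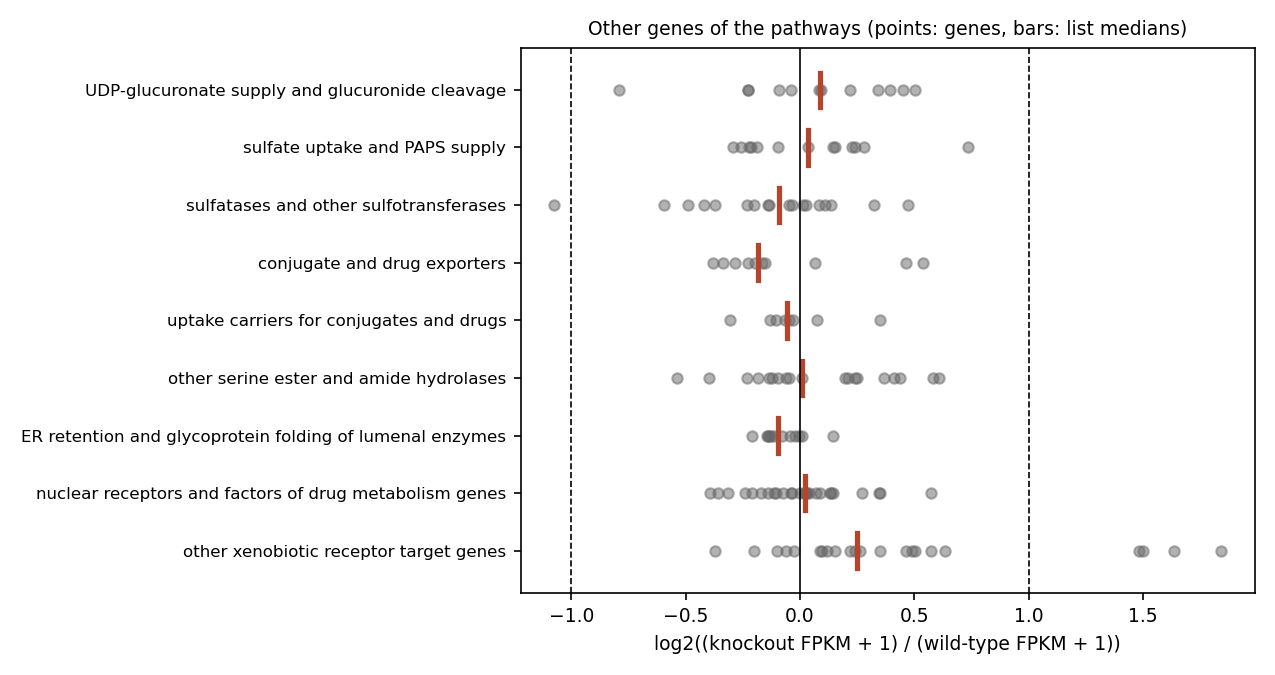
Points are the log2 ratios of the compared genes of 9 pathway lists, and bars are the list medians, with dashed lines at 2-fold. The list of other xenobiotic receptor targets has the highest median, 0.25, and 4 genes past 2-fold, and Chst4 is the one gene past 2-fold on the lower side.

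Other cells and RNA classes differed between the same libraries. All 16 leukocyte markers were below 0 (median -0.78, 5 of them 2-fold lower, summed level 384 and 176 FPKM), and 8 of 10 compared tuft cell markers were 2-fold higher (summed level 20.6 and 90.5 FPKM). All 10 mitochondrial transcripts were above 0, with a median of 0.56 and a summed level of 25953 and 35206 FPKM. Villus tip markers had a median of 0.21 over 9 genes, with Nt5e 2-fold higher at 7.15 and 19.7 FPKM. Crypt markers had a median of -0.12 over 14, none past 2-fold. Villus base markers had a median of -0.03 over 7 genes and a summed level of 1496 and 973 FPKM. Their most abundant gene, Lypd8, had 1300 and 803 FPKM, and Reg1 was 2-fold lower at 18.6 and 6.01. Goblet cell markers had a median of 0.27 over 12 genes, and Paneth cell markers 0.19 over 11. Past 2-fold were 2 goblet cell markers, Clca1 at 696 and 2059 FPKM and Spink4 at 511 and 1095. Of the Paneth cell markers, 1 was past 2-fold, Ang4 at 809 and 4221 FPKM, and 4 of the 11 were below 0. The part of these differences in the values of Ces2a, Ces1c and the other members was not tested.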

How the data were processed

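RNA was taken up in TRIzol and cDNA was amplified by SMART-Seq II, which copies polyadenylated transcripts by template switching and PCR, per the labels' protocols. The deposited table gives FPKM values that the authors made from their reads, 1 column per library, and each column was matched to its sample by title. Per the submitters' processing notes, Bowtie2 2.2.3, HTSeq 0.6.0 and mm10 were used, in roles that the notes do not assign. The sources used here do not give the annotation release, strand setting or filters.

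Identifiers were joined to GENCODE M21 (GRCm38, the same assembly as mm10), which held 27222 of 27275. FPKM times summed exon length stepped in whole units, within 0.01 of a read, for 90.6% of values above 0 in the wild-type and 90.7% in the knockout library. The step gave the depth and the reads of 44 members. For Sult4a1 the smallest whole pair with its ratio was used, so its interval may be too wide. The reads served for exact Clopper-Pearson intervals of folds and exact Poisson intervals of levels. Since PCR reads lacking molecular identifiers are not independent, these intervals cover counting error only. A count of 0 allows up to 3 reads, or 0.172 FPKM in the wild-type and 0.170 in the knockout library for a gene of 1 kb.

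Members with at least 1 FPKM could be named, with intervals for those past 2-fold and the 3 most abundant of each family, and further ones where a value is discussed. For 28 other lists, genes past 2-fold and the most abundant gene could be named. Words of 50 bases shared with other genes were counted in GENCODE M21 transcripts. The members and lists were chosen with earlier results of these data known. The calculations were tested on simulated data. Python 3.11.15, pandas 2.3.3, numpy 2.4.6, scipy 1.17.1 and matplotlib 3.10.9 were used. Alternatives were other pseudocounts, filters, scalings and member sets.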

Additional observations from a re-analysis of the deposited data

How the results depend on the processing

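Each result has 1 library per genotype, so no replicate could be left out. No paired analysis was possible because the result comes from no test. With a pseudocount of 5, only 1 carboxylesterase, Ces2a, stayed past 2-fold, since Ces1c is low. With 0.1 there were 3, and the counts over all genes were 355 higher and 575 lower in place of 217 and 338, and 61 and 122 with a pseudocount of 5. After rescaling to TPM, 3 carboxylesterases were past 2-fold, beside 285 higher and 490 lower genes. The third was Ces2b, at a log2 ratio of 1.13. Rescaling itself lowered KO against WT by a factor of 0.98. It raised the values of both libraries while the pseudocount stayed at 1, so the pseudocount weighed less. Above a filter of 5 FPKM, 97 genes were higher and 193 lower. At a threshold of 1.5-fold, chosen after the data were seen, 4 carboxylesterases, 1 glucuronosyltransferase and no sulfotransferase were higher, against 3.56% of all compared genes, and no member was lower, against 5.69%. The log2 ratio of the summed level was 0.50 for Ces, 0.25 for Ugt and 0.25 for Sult. It was 0.47 for Ces after rescaling to TPM. With the median ratio of all compared genes set to 1, it was 0.55 for Ces, 0.30 for Ugt and 0.30 for Sult. With an equal enterocyte sum it was 0.56, 0.32 and 0.31. Without members that share most of their words with other genes, it was 0.21 for Ugt. Of the 23 compared members, only Ugt2b5 changed sign under any alternative, from 0.01 to -0.02 after rescaling to TPM. Setting the sum without mitochondrial genes equal, added after the data were seen, moved no count of members. Depth limits the 22 members below 1 FPKM, which had at most 67 reads.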
